A study of Homo sapiens with 8 samples.

Results

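N-glycosylation, the transfer of a preassembled oligosaccharide to asparagine residues of proteins entering the endoplasmic reticulum (ER), was examined here in a CRISPRi growth screen of the whole genome. The genes were taken by symbol from a list of 32, which covers the supply of sugars and dolichol, the assembly of the oligosaccharide and the oligosaccharyltransferase that transfers it. Their sgRNAs were those of the primary promoter with a mean count of at least 20 over all libraries. This gave 160 sgRNAs for the 32 genes, out of 102987 targeting sgRNAs kept and 18903 genes tested. Of the 32 genes, 30 had 5 sgRNAs, RPN2 had 6 and DDOST had 4. The rule's minimum removed no sgRNA with reads: the least abundant one kept, of RPN1, had a mean count of 35.8, the next 78.2, and the 160 left out were at 0 in all 8 libraries.

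The cells were K562, a human leukemia line, carrying dCas9-KRAB, an inactive Cas9 joined to a repressor domain. An sgRNA directs this fusion to a promoter and lowers transcription of the gene, so sgRNAs against genes needed for growth become rarer as the cells divide. All cells carried the library and had been kept for 3 days in 1 µg/ml puromycin, with no other treatment. They differed in a stably expressed uL16, the ribosomal protein encoded by RPL10, which was wild-type or mutant. The labels name neither the mutation nor the state of the endogenous gene. Genomic DNA was taken at day 0 and at day 9, described as 10 doublings in the design text, which gave 4 groups of 2 libraries: wild-type day 0, wild-type day 9, mutant day 0 and mutant day 9. The screen was made to find factors that act on defective large ribosomal subunits. Library totals ran from 39233340 to 143585751 reads, and the median count of the 160 sgRNAs from 320.5 to 1172. Nothing in the labels says whether replicates were separate transductions, so p-values measure the spread between these libraries, which may be technical.

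In this pathway, UDP-GlcNAc and mannose donors are made in the cytosol, and dolichol phosphate is the lipid on which the oligosaccharide is built. The first sugars are added on the cytosolic face of the ER, the lipid-linked intermediate is moved to the lumen, and further mannose and glucose residues are added there from dolichol phosphate donors. The oligosaccharyltransferase then hands the finished glycan to the nascent protein. It exists in forms built on either of the catalytic subunits STT3A and STT3B, which share non-catalytic subunits such as RPN1, RPN2, DDOST, DAD1 and OST4.

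CRISPRi acts at the promoter, so the 250 bases before the RefSeq start are shown for the 3 genes whose sgRNAs fell and that are listed in the promoter table (DDOST, DHDDS and ALG12), and for STT3A, a catalytic subunit whose sgRNAs did not fall. They are from RefSeq on build GRCh38.p14, each on the strand of its gene: DDOST at chr1:20661370-20661619 (minus strand), DHDDS at chr1:26432071-26432320 (plus), ALG12 at chr22:49918439-49918688 (minus) and STT3A at chr11:125592602-125592851 (plus). Capitals mark matches, on either strand, to GGGCGG (the GC box), CCAAT (the CCAAT box), CCGGAAG (an ETS-type motif), TATAAA (the TATA box), TGACGTGG (an unfolded protein response motif) and the ER stress element. The last is CCAAT, followed after any 9 bases by CCACG, so every match also holds a CCAAT box.
DDOST: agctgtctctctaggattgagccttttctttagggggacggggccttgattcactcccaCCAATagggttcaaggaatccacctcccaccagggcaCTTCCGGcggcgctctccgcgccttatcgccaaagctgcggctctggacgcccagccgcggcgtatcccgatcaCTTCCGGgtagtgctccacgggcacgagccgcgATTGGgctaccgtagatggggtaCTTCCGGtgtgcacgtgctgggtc
DHDDS: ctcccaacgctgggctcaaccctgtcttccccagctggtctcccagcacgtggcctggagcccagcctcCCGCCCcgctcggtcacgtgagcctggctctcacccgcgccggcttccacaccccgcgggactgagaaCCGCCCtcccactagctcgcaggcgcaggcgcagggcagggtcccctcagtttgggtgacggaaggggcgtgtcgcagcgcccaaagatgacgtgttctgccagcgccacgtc
ALG12: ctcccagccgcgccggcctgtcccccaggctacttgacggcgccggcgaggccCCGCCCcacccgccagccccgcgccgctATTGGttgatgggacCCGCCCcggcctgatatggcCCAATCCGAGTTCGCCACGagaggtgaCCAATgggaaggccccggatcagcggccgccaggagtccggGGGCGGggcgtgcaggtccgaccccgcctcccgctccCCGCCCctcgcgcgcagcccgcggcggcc
STT3A: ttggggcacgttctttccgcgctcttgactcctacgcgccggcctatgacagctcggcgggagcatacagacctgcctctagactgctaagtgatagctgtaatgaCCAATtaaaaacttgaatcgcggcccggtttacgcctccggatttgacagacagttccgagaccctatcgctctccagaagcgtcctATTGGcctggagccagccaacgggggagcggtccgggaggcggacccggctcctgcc

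The DDOST stretch holds 3 matches to CCGGAAG and 2 to CCAAT, that of DHDDS 2 GC boxes, that of ALG12 4 GC boxes, 3 CCAAT matches and 1 ER stress element, and that of STT3A 2 CCAAT matches. Of the 32 genes, 29 matched the table by symbol; ALG10, RPN1 and STT3B did not. Among these 29, 17 (58.6%) held a GC box, 12 (41.4%) CCAAT, 8 (27.6%) CCGGAAG and 2 (6.9%) TATAAA, while ALG12 was the 1 gene with the ER stress element and 0 held TGACGTGG. For comparison, 27305 promoters of the same length were taken, 1 per gene in the promoter table and not limited to the genes screened. Of these, 42.3% held a GC box, 33% CCAAT, 8.82% CCGGAAG, 11.1% TATAAA, 0.0806% the ER stress element and 0.667% TGACGTGG. A match is a description of the letters. Median GC content was 62.4% in the 29 stretches and 58% in all.

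For most of the 32 genes, summed sgRNA abundance stayed near its starting level over the growth period, and a few genes were called lower. In cells with wild-type uL16, sgRNAs of 4 of the 32 genes fell (DDOST, RPN1, DHDDS and ALG12) and 0 rose. In cells with mutant uL16, those of DDOST and RPN1 fell and 0 rose. These calls are edgeR quasi-likelihood tests of the counts summed per gene, at a Benjamini-Hochberg adjusted p of 0.05 over 18903 genes. Of all genes tested, 8.7% were called lower and 0.868% higher in wild-type cells, and 8.53% lower and 0.704% higher in mutant cells, so 4 and 2 of 32 lie near the background share. The median log2 change (day 9 over day 0) of the 32 genes was -0.03 in both lines, against 0.01 over all genes in each. Fewer of the 32 were called in wild-type cells without wild-type day 0 replicate 1 or 2, and in mutant cells without mutant day 0 replicate 1. Each of these fits also called fewer genes over the whole screen in the same line, so the loss was not limited to the 32.

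DDOST, the subunit known as OST48 and part of the oligosaccharyltransferase core, had the largest fall of the 32 genes in both lines. Its summed sgRNAs stood at 39.9 and 41.5 CPM (counts scaled to the library's total, with TMM factors) in the wild-type day 0 libraries and at 10.8 and 14.6 at day 9. In mutant cells they stood at 44.1 and 39.7 at day 0 and at 12.0 and 22.3 at day 9. Day 9 lay below day 0 in both lines with no overlap, and the mutant day 9 libraries were further apart than the wild-type ones. The log2 change was -1.68 (SE 0.19, edgeR adjusted p = 1.88e-08) in wild-type cells, a 3.20-fold fall, and -1.27 (SE 0.18, adjusted p = 2.21e-06) in mutant cells, a 2.41-fold fall. Among 18903 genes ordered from the lowest change, it was number 244 in wild-type and 420 in mutant cells.

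The 4 sgRNAs of DDOST differed in strength. The third by genomic position, 359 bp from the first, went from 20.4 and 15.8 CPM to 3.01 and 3.88 in wild-type cells. In mutant cells it went from 20.2 and 18.1 to 4.07 and 5.29. Its log2 change was -2.39 (SE 0.23) and -2.02 (SE 0.22). The second, 118 bp from the first, changed by -1.57 (SE 0.34) and -1.71 (SE 0.33), and both of these sgRNAs passed the test in both lines when single sgRNAs were fitted. The first changed by -1.50 and -1.24 and did not pass (adjusted p = 0.0553 and 0.163). The fourth, 412 bp from the first, changed by -0.63 and 0.08, also without passing. Without the third sgRNA, the most abundant one, the gene's change was -1.20 in wild-type (edgeR adjusted p = 0.000354) and -0.75 in mutant cells (adjusted p = 0.0341). Over all 17 alternative settings the adjusted p of the gene stayed at or below 0.00299 in wild-type and 0.0341 in mutant cells.

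RPN1, which encodes ribophorin I, a subunit that lies next to the translocon, had the next largest falls. Its summed sgRNAs went from 28.5 and 31.2 CPM to 21.2 and 18.8 in wild-type cells and from 29.9 and 25.2 to 14.7 and 17.9 in mutant cells, with no overlap in either line. The log2 change was -0.58 (SE 0.16, edgeR adjusted p = 0.0147) in wild-type and -0.75 (SE 0.16, adjusted p = 0.000913) in mutant cells, falls of 1.49-fold and 1.68-fold. All 5 sgRNAs had negative values in both lines, from -1.26 to -0.13 in wild-type and from -1.91 to -0.25 in mutant cells. The first, which gave the -1.91, and the fourth had low mean counts of 85.9 and 35.8, and neither passed alone. Their SEs were 0.66 and 1.18 in wild-type and 0.70 and 1.19 in mutant cells. The most abundant, the fifth, moved least, from 9.73 and 10.8 CPM to 9.39 and 9.32 in wild-type cells. Without it the gene's change was -0.90 in wild-type and -1.23 in mutant cells. The second sgRNA passed alone in wild-type cells (-1.26, adjusted p = 0.0193) and the third in mutant cells (-1.50, adjusted p = 0.00342). RPN1 lost its call in wild-type cells without wild-type day 0 replicate 1 or 2 or wild-type day 9 replicate 2 (-0.64, -0.51 and -0.49, with edgeR adjusted p = 0.0621, 0.204 and 0.0811), and in mutant cells without mutant day 0 replicate 1 (-0.62, adjusted p = 0.0747). Over the 17 settings its adjusted p ran from 0.00127 to 0.204 in wild-type and from 6.19e-06 to 0.0747 in mutant cells.

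The other subunits on the list gave no call in either line. STT3A, the catalytic subunit that works with the translocon during protein entry, went from 28.8 and 34.5 CPM to 34.6 and 40.8 in wild-type cells and from 30.1 and 32.1 to 30.6 and 34.3 in mutant cells. Its log2 changes were 0.25 (SE 0.13) and 0.06 (SE 0.13), and in wild-type cells its 5 sgRNAs all lay between 0.07 and 0.40. RPN2, or ribophorin II, had values of 0.01 (SE 0.10) and -0.11 (SE 0.10), but 2 of its 6 sgRNAs have the same position and strand as sgRNAs of MROH8 and cannot be told from it. DAD1, a small membrane subunit, had -0.11 (SE 0.13) and -0.16 (SE 0.13), and OST4, a very short membrane subunit, had 0.03 (SE 0.12) and 0.02 (SE 0.12).

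STT3B, the catalytic subunit that acts mainly after protein entry, had sgRNAs that disagreed more than those of any other gene of the 32. Summed, they stood at 42.8 and 41.7 CPM at day 0 and 40.5 and 50.0 at day 9 in wild-type cells, and at 35.9 and 41.4 against 35.7 and 39.9 in mutant cells. These values overlap, with log2 changes of 0.10 (SE 0.12) and -0.03 (SE 0.12). The fifth sgRNA alone went from 6.43 and 5.42 CPM to 0.190 and 0.341 in wild-type cells and from 3.16 and 4.67 to 0.737 and 0.972 in mutant cells. Its log2 change was -4.47 (SE 0.52, edgeR adjusted p = 7.93e-07) and -2.18 (SE 0.45, adjusted p = 0.00158), while the 4 others lay between -0.10 and 0.61 in wild-type and between -0.12 and 0.61 in mutant cells. The SD over the 5 sgRNAs was 2.16 in wild-type cells, where the median over all genes was 0.30 and that over the 32 genes 0.29. When sgRNAs were averaged on the log2 scale rather than summed, the change of STT3B in wild-type cells turned to -0.63 and passed (limma adjusted p = 0.0269). Over the 17 settings its adjusted p ran from 0.0269 to 0.896.

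Dolichol phosphate synthesis had DHDDS as its 1 called gene of 4, in wild-type cells. DHDDS, which with NUS1 forms the cis-prenyltransferase that makes the dolichol chain, went from 49.5 and 62.0 CPM to 41.1 and 39.4 in wild-type cells and from 53.4 and 51.7 to 48.3 and 49.4 in mutant cells. Day 9 lay below day 0 without overlap in each line. The log2 change was -0.47 (SE 0.11, edgeR adjusted p = 0.00241) in wild-type and -0.10 (SE 0.11, adjusted p = 0.732) in mutant cells. The call in wild-type cells was lost without wild-type day 0 replicate 2 (-0.30, adjusted p = 0.249), the library with the highest DHDDS value. Its adjusted p over the 17 settings ran from 8.58e-05 to 0.249. The other 3 genes, NUS1, SRD5A3 (polyprenol reduction) and DOLK (the dolichol kinase), had changes from -0.06 to 0.17 in wild-type and from -0.13 to 0.17 in mutant cells. NUP188, a nuclear pore gene whose sgRNAs come within 214 bp of those of DOLK, had 0.02 (SE 0.11) in wild-type cells. In mutant cells NUP188 had -0.38 (SE 0.11) and was called lower (edgeR adjusted p = 0.0262).

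The fall of DHDDS came from 2 of its 5 sgRNAs, which passed alone in both lines. The second sgRNA, 41 bp from the first, went from 7.63 and 8.09 CPM to 1.83 and 2.03 in wild-type cells and from 6.89 and 6.78 to 2.54 and 3.18 in mutant cells. This was a log2 change of -2.02 (SE 0.32) and -1.25 (SE 0.31). The third, 71 bp from the first, changed by -1.91 (SE 0.35) and -1.52 (SE 0.34). The first, the fourth and the fifth lay between -0.20 and 0.19 in wild-type and between 0.01 and 0.26 in mutant cells, and the fourth was the most abundant. In the sum per gene these near-flat sgRNAs carry most of the counts, and the mean of log2 values was -0.81 in wild-type (limma adjusted p = 0.00137) and -0.45 in mutant cells (adjusted p = 0.053).

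Among the lumenal steps, ALG12, the mannosyltransferase that adds a late mannose, was called in wild-type cells. Its sgRNAs went from 52.0 and 50.5 CPM to 38.8 and 37.6 in wild-type cells and from 45.6 and 43.5 to 37.6 and 35.2 in mutant cells, with day 9 below day 0 in each line. The log2 change was -0.42 (SE 0.11, edgeR adjusted p = 0.00689) and -0.29 (SE 0.11, adjusted p = 0.103). No sgRNA of ALG12 passed alone, with values from -0.86 to 0.30 in wild-type and from -1.23 to 0.09 in mutant cells. The call was lost without the most abundant sgRNA (-0.34, adjusted p = 0.136), with limma on mean log2 values (-0.31, adjusted p = 0.0955) and without wild-type day 0 replicate 1 or 2 (-0.40 and -0.44, adjusted p = 0.0975 and 0.0511). Over the 17 settings the adjusted p in wild-type cells ran from 3.08e-05 to 0.136. In mutant cells ALG12 was called lower by DESeq2 (-0.29, adjusted p = 0.00957) and by limma on mean log2 values (-0.43, adjusted p = 0.0196), within a range of 0.00957 to 0.705. The sgRNAs of CRELD2, a gene on the other side of this promoter, lie as near as 309 bp, and CRELD2 had a change of 0.02 (SE 0.12) in wild-type and 0.04 (SE 0.12) in mutant cells.

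The remaining lumenal enzymes were not called. ALG3, which adds the first mannose from dolichol phosphate mannose, had the highest value of the 32 genes in mutant cells. It went from 44.9 and 45.2 CPM to 54.1 and 56.6 there, a log2 change of 0.30 (SE 0.10, edgeR adjusted p = 0.076), and from 49.6 and 49.8 to 42.0 and 50.2 in wild-type cells (-0.11, SE 0.11). ALG3 was called higher in mutant cells in 3 of the 17 settings, DESeq2 among them (adjusted p = 0.0129). Its adjusted p over all settings ran from 0.0129 to 0.481. ALG9 (mannose), and ALG6 and ALG8 (glucose), had changes from -0.18 to 0.06 in wild-type and from -0.08 to 0.06 in mutant cells. Without wild-type day 9 replicate 1, ALG6 stood at -0.54 in wild-type cells and passed (edgeR adjusted p = 0.00353, range over its settings 0.00353 to 0.935), and without wild-type day 9 replicate 2 it stood at 0.11. Such a fit leaves 1 library in the group, which is assumed to vary like the other groups. ALG10, the last glucosyltransferase, had -0.15 (SE 0.14) and -0.02 (SE 0.14), and its mutant day 9 libraries stood far apart at 57.4 and 34.2 CPM. Without mutant day 9 replicate 1 it was at -0.43 and passed in mutant cells under the same assumption (edgeR adjusted p = 0.0337, range 0.0337 to 0.996). Its paralog ALG10B, which is not among the 32, had -0.09 (SE 0.10) and 0.01 (SE 0.10).

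No gene of the cytosolic steps passed in either line. DPAGT1, the enzyme that starts the oligosaccharide and the target of tunicamycin, went from 53.6 and 49.5 CPM to 49.5 and 60.4 in wild-type cells and from 58.2 and 57.1 to 50.3 and 54.4 in mutant cells. Its log2 changes were 0.09 (SE 0.10) and -0.14 (SE 0.10). ALG13 and ALG14, which together add the second GlcNAc, and the mannosyltransferases ALG1, ALG2 and ALG11 had changes from -0.09 to 0.03 in wild-type and from -0.11 to 0.09 in mutant cells. All 5 sgRNAs of ALG11 have the same position and strand as those of UTP14C, so the 2 genes are a single measurement here. ALG2 lies beside SEC61B, a translocon subunit, whose sgRNAs come within 418 bp and which had a change of -0.11 (SE 0.08) in wild-type and 0.05 (SE 0.08) in mutant cells.

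Sugar donors gave the same picture. The enzymes of UDP-GlcNAc synthesis on the list, GFPT1 (the entry enzyme of the hexosamine pathway), PGM3 and UAP1, had changes from -0.12 to 0.07 in wild-type and from -0.15 to 0.01 in mutant cells. The mannose phosphate enzymes MPI and PMM2 had 0.18 (SE 0.10) and 0.05 (SE 0.09) in wild-type, and -0.02 (SE 0.10) and -0.04 (SE 0.09) in mutant cells. The 3 subunits of dolichol phosphate mannose synthase, DPM1, DPM2 and DPM3, had 0.15, 0.08 and -0.08 in wild-type and -0.01, -0.03 and -0.01 in mutant cells. DPM1 and PGM3 each share 1 sgRNA position with another gene, MOCS3 and RWDD2A.

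ALG5, which makes dolichol phosphate glucose, was flat in sum, at -0.11 (SE 0.10) and -0.01 (SE 0.10), but had 1 sgRNA that fell. The second of its 5 sgRNAs went from 14.8 and 13.6 CPM to 4.25 and 4.26 in wild-type cells and from 11.8 and 11.4 to 4.78 and 5.86 in mutant cells. This was a log2 change of -1.73 (SE 0.24, edgeR adjusted p = 7.40e-06) and -1.11 (SE 0.23, adjusted p = 0.00161). The sgRNAs on either side of it, 6 and 10 bp away, had 0.84 and 0.13 in wild-type and 0.22 and 0.08 in mutant cells and did not pass. EXOSC8, a subunit of the RNA exosome on the same chromosome, has sgRNAs 1502 bp from this one and changed by -1.33 (SE 0.12) and -1.16 (SE 0.12). The ALG5 sgRNA nearest to EXOSC8, the fifth at 1116 bp, had 0.12 and 0.43 and did not pass. Any part of EXOSC8 in the fall was not tested.

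For the 28 genes called in neither line, the 95% intervals gave the range of changes that the spread between libraries allows. In wild-type cells the lowest bound was -0.46 (ALG6) and in mutant cells -0.42 (DAD1). All 28 lower bounds thus lay above -0.5 for the summed counts when all 8 libraries were fitted. This limit does not hold in every setting, since ALG6 stood at -0.54 in wild-type cells without wild-type day 9 replicate 1 and STT3B at -0.63 with limma on mean log2 values. The 28 genes were selected for not being called, which by itself keeps such bounds from lying far below 0. The limit is therefore no separate evidence of small effects. ALG12, uncalled in mutant cells but not among the 28, had a lower bound of -0.51 there. Changes of the 28 genes ran from -0.18 to 0.25 in wild-type and from -0.16 to 0.30 in mutant cells. These libraries count sgRNAs and hold no measure of how far each transcript was lowered. A value near 0 therefore does not separate a gene with little effect on growth from an sgRNA set with little effect on its gene.

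At the level of single sgRNAs, 7 of the 160 were called lower in wild-type cells and 2 higher, and 7 were called lower in mutant cells and 0 higher. Of all targeting sgRNAs, 5.2% were called lower and 0.266% higher in wild-type cells, and 5.09% lower and 0.165% higher in mutant cells, so the lower calls again lie near the background, while 2 of 160 is a larger share than that of all higher calls in wild-type cells. Among 1894 non-targeting control sgRNAs, 0.581% were called lower and 0.317% higher in wild-type cells, and 0.528% lower and 0.158% higher in mutant cells. DESeq2 called 12 of the 160 lower in mutant cells, and edgeR called fewer than 7 without mutant day 0 replicate 1 or 2. Shares over all sgRNAs were not computed for these fits, so they are not to be read against 5.09%. Over all genes in mutant cells, DESeq2 also called more than edgeR (2395 against 1745, both directions together), and these 2 edgeR fits called fewer. The 2 higher ones in wild-type cells were the third sgRNA of GFPT1 (1.21, SE 0.33, edgeR adjusted p = 0.0230) and the fourth of SRD5A3 (0.74, SE 0.22, adjusted p = 0.0461). In mutant cells these 2 had 0.01 and 0.15. Without wild-type day 0 replicate 1 or 2, 0 of the 160 were called higher in wild-type cells, and DESeq2 called 6. Of 8 sgRNAs lower in at least 1 line, 6 were lower in both: 2 of DDOST, 2 of DHDDS, 1 of ALG5 and 1 of STT3B. Such overlap was common in the screen. Of its 95977 primary-promoter sgRNAs, 4206 were lower in both lines, where the totals per line were 5255 (wild-type) and 5129 (mutant). Of the 28 genes not called, 2 (7.14%) had an sgRNA lower in both lines. The share was 4.45% among the 16699 genes of the screen called in neither line.

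Whether an effect depended on the form of uL16 was the question of the series, and for these genes no difference passed. The difference of the changes (mutant minus wild-type) passed for 0 of 32 genes and 0 of 160 sgRNAs in edgeR, where 0.0159% of all genes and 0% of all targeting sgRNAs passed as lower. Without adjustment, 2 of 32 genes and 10 of 160 sgRNAs had a p under 0.05, about the share of all features (1053 of 18903 genes and 5262 of 102987 sgRNAs), and DESeq2 also called 0 of each. The 2 genes were ALG3 at 0.41 (95% interval 0.10 to 0.71) and DHDDS at 0.37 (0.05 to 0.68), both with an adjusted p of 0.883. Without wild-type day 0 replicate 2 the difference of DHDDS was 0.20, with an edgeR adjusted p of 0.998, and over the 17 settings its adjusted p ran from 0.321 to 1.00. DDOST differed by 0.41 (-0.12 to 0.93, adjusted p = 0.907), RPN1 by -0.18 (-0.64 to 0.29, adjusted p = 0.972) and ALG12 by 0.13 (-0.18 to 0.44, adjusted p = 0.962). The difference of DDOST turned to -0.12 without mutant day 9 replicate 2 and was 0.76 without mutant day 9 replicate 1, so its direction rested on 1 library. The call of DHDDS and ALG12 in 1 line alone is therefore not shown to be a difference between lines. Across the 32 genes the changes in the lines correlated with r = 0.85 (Pearson) and rho = 0.32 (Spearman), and across the 28 uncalled genes with r = -0.04. All points come from the same 8 libraries, and genes are not replicates.

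The wider pathway was read from 98 further genes in 9 lists, of which 15 (15.3%) fell and 0 rose in each line, against 8.7% and 8.53% of all genes called lower. The lists were chosen with results of these data known, and each list's count is to be read against those shares. Of the 5 further oligosaccharyltransferase subunits (TUSC3, MAGT1, OSTC, KRTCAP2 and TMEM258), 0 passed, with changes from -0.06 to 0.18 in wild-type and from -0.12 to 0.07 in mutant cells. Of 13 genes of precursor supply and flipping, 2 fell in both lines. They included GNPNAT1, the acetyltransferase between GFPT1 and PGM3 in UDP-GlcNAc synthesis, which had -0.73 (SE 0.12, edgeR adjusted p = 1.07e-05) in wild-type and -0.49 (SE 0.11, adjusted p = 0.00259) in mutant cells.

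The mevalonate pathway, which feeds dolichol as well as sterols and protein prenylation, had 5 of 10 genes lower in each line. Its synthase HMGCS1 had -2.06 (SE 0.14) and -2.45 (SE 0.15), and PMVK -0.54 (SE 0.12) and -0.73 (SE 0.12). MVD, the decarboxylase, fell 2.01-fold and 2.52-fold. FDFT1, which leads to sterols, was also called lower in wild-type cells and FDPS, which makes farnesyl diphosphate, in mutant cells. Of 15 translocon and unfolded protein response genes, 5 fell in wild-type and 4 in mutant cells. They included the channel subunit SEC61A1 at -3.49 (SE 0.24) and -4.45 (SE 0.25), the site-2 protease MBTPS2 at -1.86 (SE 0.13) and -2.05 (SE 0.13), and SEC61G at -0.62 (SE 0.12) and -0.43 (SE 0.12).

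Few genes that act after transfer of the glycan passed. Genes tied to other uses of the same sugar donors are given last. Of 9 genes of glucose trimming and lectin chaperones, among them the glucosidases MOGS and GANAB and the chaperones CANX and CALR, 0 passed in either line, with changes from -0.05 to 0.14 and from -0.24 to 0.13. Of 15 genes of mannose trimming and glycoprotein degradation, 0 passed in wild-type cells, with a median change of -0.16 there and -0.05 in mutant cells. At an unadjusted edgeR p under 0.05, 5 of the 15 were lower in wild-type cells, a larger share than the 2486 of all 18903 genes. In mutant cells 3 were lower and 1 higher, against 2350 and 921 of all genes. DERL2, an ER-associated degradation factor, fell in mutant cells (-0.65, SE 0.12, edgeR adjusted p = 8.04e-05) and had -0.24 (SE 0.12) in wild-type cells. Its difference did not pass (-0.40, adjusted p = 0.883). Of 16 Golgi genes, SLC35A1, the CMP-sialic acid transporter, fell in both lines (-0.54, SE 0.11, and -0.55, SE 0.11). Of 13 genes of GPI anchor synthesis, O-mannosylation and C-mannosylation, DPY19L1 fell in both lines (-0.43, SE 0.12, and -0.41, SE 0.12). These pathways use dolichol phosphate mannose, though not every one of the 13 genes acts at a step that does. In a list of 2 genes of O-GlcNAc cycling, 1 passed in each line. It was OGT, which uses UDP-GlcNAc to modify nuclear and cytosolic proteins. OGT had -0.72 (SE 0.13, edgeR adjusted p = 0.000154) and -0.43 (SE 0.13, adjusted p = 0.0316). The other gene, MGEA5, had -0.26 (SE 0.11) and -0.17 (SE 0.11).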

How the data were processed

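The authors deposited raw counts per sgRNA, 1 column per library. Per the file headers, bases 1 to 39 of each read were matched in forward orientation to the human CRISPRi version 2 library; the submitters' processing notes name hg38. The counting tool was not given in the sources used here. In R 4.3.3, primary-promoter sgRNAs with a mean count of at least 20 were summed per gene (at least 3 sgRNAs) and fitted with edgeR 4.0.16 (TMM, quasi-likelihood, 4 group means over 8 libraries, 4 residual degrees of freedom), as were 104881 single sgRNAs, controls included. SE is the change over the root of its F statistic, and 95% intervals use the fit's degrees of freedom. Alternatives used DESeq2 1.42.0, limma 3.58.1 (prior count 2), RLE or control scaling, other filters and sgRNA sets, replicate blocks and leaving out each library, which leaves a group of 1 that is assumed to vary like the others. sgRNAs are numbered by rising genomic position, whatever the strand of the gene, and neighbours were searched within 1 kb. Positions are not on the RefSeq table's build, so no sgRNA coordinates are given. The genes and lists were chosen with earlier results of these data known. All 32 genes were described, with values for neighbours of called genes within 1 kb and for up to 4 genes of each further list by smallest p. Named beyond that rule, after values were seen, were EXOSC8, SEC61B, NUP188, ALG10B, FDFT1, FDPS and genes given as examples without values. Intervals cover the spread between libraries, and PCR copies of 1 molecule are counted separately. Values of some genes of the further lists are not reported here.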

Additional observations from a re-analysis of the deposited data

How the results depend on the processing

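Of 1632 recomputed gene changes over 17 settings, 1505 kept their direction and side of the threshold, 9 lost and 7 gained a call, 110 uncalled values changed sign, and STT3B in wild-type cells changed sign with a call (-0.63 by limma on mean log2 values). Leaving out 1 library gave 1 to 5 genes lower in wild-type and 1 to 3 in mutant cells, and 6 to 9 and 4 to 9 sgRNAs. DESeq2 called 12 sgRNAs lower in mutant cells instead of 7. Over all genes DESeq2 called 2763 in wild-type cells instead of 1808, and 47 in the difference instead of 3; that count was 1 with limma or all promoters pooled, 9 with the replicate block and 1 to 18 without 1 library. Same-numbered libraries had correlated deviations of 0.02 (wild-type) and 0.05 (mutant) over 18903 genes, so the numbers were not taken as pairs; the replicate block gave 4, 2 and 0 genes and 8, 8 and 0 sgRNAs. Counts of 0 differing genes and sgRNAs held in every setting run. The causes were not tested.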
